A study of Mus musculus with 6 samples.

Results

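Low oxygen switches on a shared set of genes through hypoxia-inducible factors, and many of the enzymes of glycolysis belong to that set. Of 10 such genes listed for the embryonic mouse pancreas, 7 had a probe on the arrays described here. The members are the probes whose single gene symbol in the platform annotation is Bnip3, Ankrd37, Tpi1, Aldoa, Aldoc, Ldha, Pgk1, Gapdh, Eno1 or Pgam1, which gave 15 of the 21888 probes in the table. All 15 had values on at least 4 arrays and were tested. They were 2 probes of Bnip3, 2 of Ankrd37, 4 of Tpi1, 2 of Aldoa, 1 of Aldoc, 1 of Gapdh and 3 of Pgam1. Ldha, Pgk1 and Eno1 had no probe with their symbol alone and are not analysed here.

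The study set pancreas RNA of Sox4-/- embryos against pancreas RNA of wild-type littermates at embryonic day 12.5, on 6 spotted arrays with 2 channels each. Sox4 encodes an HMG-box transcription factor, and the mutant is a germline knockout. The wild-type RNA was the source of channel 1 and the knockout RNA that of channel 2 on all arrays, so a channel bias and a genotype difference cannot be told apart. The tissue was pooled into 2 groups and the RNA amplified, as the label of arrays 1 and 2 says, and nothing says that the arrays hold RNA of separate embryos, so p-values measure array-to-array spread that may be only technical.

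The deposited values are log2 ratios, read here as the RNA labelled knockout over the RNA labelled wild type. This direction is likely from the channel order and the titles but is not stated, and all signs below turn if it is the other way round. The table holds no intensities, so neither the level of any gene nor the presence of pancreas markers could be checked. In such bulk tissue, fewer cells of a type and less RNA per cell cannot be told apart. Each array was centred on its median, and a probe was called at a limma adjusted p under 0.05. The spread differed between arrays, with a median absolute deviation of 0.54 on array 2 against 0.27 to 0.44 on the others. Array 1 correlated with array 2 (Spearman's rho across probes 0.52) and arrays 3 to 6 with each other (0.44 to 0.58), against 0.05 to 0.32 between these sets, and only the labels of arrays 1 and 2 carry a text on sample preparation. Neither of the 2 Sox4 probes was called, at -0.03 ± 0.25 and -0.09 ± 0.13 with limma adjusted p of 0.892 and 0.446, so the knockout is not seen at them. No source used here says whether these probes lie in the deleted part, and the groups are named by their labels.

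When oxygen is scarce, hypoxia-inducible factors are no longer degraded and bind short DNA elements near their target genes. Their targets raise glucose uptake and glycolysis, send pyruvate to lactate in place of the mitochondria, and remove mitochondria through receptors such as Bnip3. Glycolysis itself splits a sugar phosphate in the aldolase step (Aldoa, Aldoc), interconverts the trioses (Tpi1), oxidises one of them (Gapdh) and passes the phosphate on through Pgk1, Pgam1 and Eno1 before pyruvate is made. The early pancreatic bud grows in embryonic tissue that is still poorly perfused, and the oxygen supply is known to influence its endocrine differentiation.

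The core of the element bound by hypoxia-inducible factors is ACGTG or GCGTG, and promoter windows from RefSeq, build GRCm38.p6, were searched for both on both strands. A window runs from 250 bases before a gene's annotated start over the 50 bases from the start on. The windows of the 3 genes with called probes are shown because they differ in these letters, with every match on either strand in capitals. Bnip3 is at chr7:138909457-138909756, Ankrd37 at chr8:45999801-46000100 and Tpi1 at chr6:124814109-124814408, all on the minus strand and printed 5′ to 3′ along the gene.
Bnip3: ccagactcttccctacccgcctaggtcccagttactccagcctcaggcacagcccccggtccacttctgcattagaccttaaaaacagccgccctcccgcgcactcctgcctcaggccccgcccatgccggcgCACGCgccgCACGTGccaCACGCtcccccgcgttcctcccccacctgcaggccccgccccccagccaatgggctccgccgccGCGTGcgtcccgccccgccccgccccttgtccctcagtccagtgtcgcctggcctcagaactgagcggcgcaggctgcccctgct
Ankrd37: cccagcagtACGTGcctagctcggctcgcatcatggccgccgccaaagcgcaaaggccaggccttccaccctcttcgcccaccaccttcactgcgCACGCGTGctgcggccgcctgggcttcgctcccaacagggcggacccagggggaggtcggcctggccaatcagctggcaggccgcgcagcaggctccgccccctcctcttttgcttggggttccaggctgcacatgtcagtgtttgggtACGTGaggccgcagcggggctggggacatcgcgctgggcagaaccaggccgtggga
Tpi1: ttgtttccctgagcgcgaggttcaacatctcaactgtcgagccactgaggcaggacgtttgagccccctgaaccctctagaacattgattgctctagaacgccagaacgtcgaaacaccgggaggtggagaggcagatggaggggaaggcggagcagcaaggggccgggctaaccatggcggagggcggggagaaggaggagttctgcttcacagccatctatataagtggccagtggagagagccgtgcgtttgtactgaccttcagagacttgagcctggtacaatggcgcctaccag

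The Bnip3 window held 2 matches to ACGTG, the strands of 1 palindromic CACGTG at -108 to -103 from the start, and 3 matches to GCGTG, at -117 to -113, -99 to -95 and -35 to -31. CACGTG is also the letters of an E-box, which other factors bind. The Ankrd37 window held ACGTG at -241 to -237 and at -6 to -2, and overlapping GCGTG matches on opposite strands between -155 and -148. The Tpi1 window had no match to either. All 10 listed genes had a window, 16 windows in all because some genes have several starts. Windows of nearby starts overlap at Aldoa and at Eno1, so a site in such an overlap counts more than once among the windows. ACGTG was in at least 1 window of 8 of the 10 genes and in 9 of the 16 windows, 56.2%, against 19.6% of all 32851 windows in the RefSeq table. Either form was in 14 of the 16 windows, 87.5%, against 43.8% of all. The listed windows were also richer in G and C, with a median of 65.3% against 52.7%, and both forms contain CG. The genes were listed as ones that low oxygen switches on, so these shares describe the list and do not test it. The share of all genes with a match in any window was not counted, and several windows give a gene more chances of one. A match describes the letters of a window, and no match says only that they are not in it.

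The RNA labelled knockout had less Bnip3, Tpi1 and Ankrd37 signal than the RNA labelled wild type, at 6 of the 15 probes, and at no probe was it called higher. Bnip3 was about 2-fold lower at both of its probes. Tpi1 was 1.26-fold to 1.39-fold lower at 3 of 4 probes, and Ankrd37 was 1.25-fold lower at 1 of 2. No probe of Aldoa, Aldoc, Gapdh or Pgam1 was called. Over all 21247 tested probes, 3.53% were called under 0 and 1.96% above 0. The mean was under 0 at 13 of the 15 probes, and under 0 at 46.3% of all probes. The median gene mean over the 7 genes was -0.19, against 0.05 over all 10818 genes tested. The list was drawn up with earlier results of these arrays known, so these counts describe it and do not test it.

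**Figure D1:**
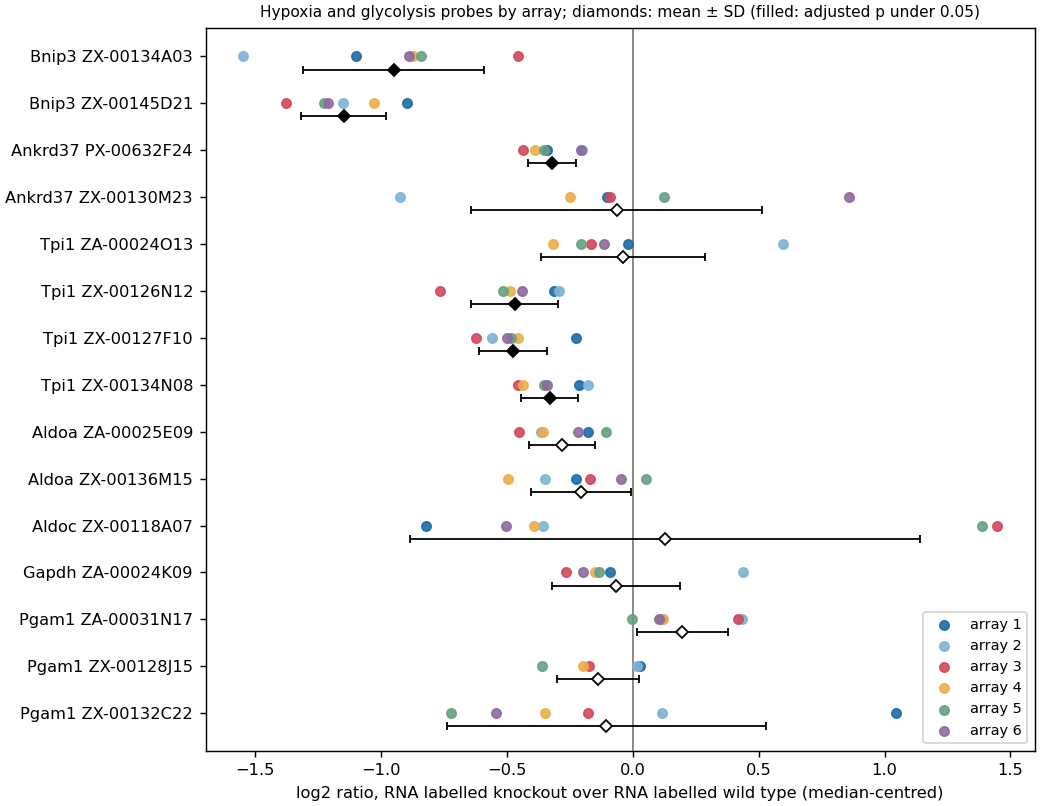
Log2 ratio (x axis) of each of the 15 hypoxia and glycolysis probes (y axis) on each of the 6 arrays (coloured points), with the mean ± SD over arrays as a diamond under the points, filled where the limma adjusted p was under 0.05. Both Bnip3 probes lie under 0 on every array, while the single Aldoc probe spreads from -0.82 to 1.45.

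Bnip3 is a protein of the outer mitochondrial membrane that marks mitochondria for removal. Its probe ZX-00145D21 had log2 ratios of -0.90, -1.15, -1.38, -1.03, -1.23 and -1.21 on arrays 1 to 6. All 6 arrays were under 0 and lay close together. The mean was -1.15 ± 0.17 (SD, n = 6), a 2.22-fold lower ratio with a 95% interval of 1.94 to 2.54, at a limma adjusted p of 0.00597. By p it ranked 9 among all 21247 probes, and by mean 81 from the lowest. Its other probe, ZX-00134A03, had ratios of -1.10, -1.55, -0.46, -0.87, -0.84 and -0.89. Here array 2 was the lowest and array 3 the highest, where the first probe had its lowest value. The mean was -0.95 ± 0.36 (n = 6), a 1.93-fold lower ratio with an interval of 1.54 to 2.42 and an adjusted p of 0.0288. Averaged over both probes, Bnip3 was at -1.05 ± 0.16 and ranked 23 from the lowest among 10818 genes (limma adjusted p over genes 0.00607). It was the only one of the 7 genes called with 1 value per gene, as were 3.47% of all genes under 0.

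Ankrd37 encodes a small ankyrin repeat protein whose gene is a target of hypoxia-inducible factors. Probe PX-00632F24 had log2 ratios of -0.34, -0.20, -0.44, -0.39, -0.35 and -0.21, all under 0, with the smallest SD of the 15 probes. The mean was -0.32 ± 0.10 (n = 6), 1.25-fold lower with an interval of 1.12 to 1.39, at an adjusted p of 0.0457 (limma). Without median centring, where 1.92% of all probes were called under 0, it lay at -0.22 (adjusted p 0.0983) and was not called. Probe ZX-00130M23 gave -0.10, -0.93, -0.09, -0.25, 0.12 and 0.86, with arrays on both sides of 0. Its mean was -0.07 ± 0.58, with an interval of -0.56 to 0.43 that holds the mean of the first probe, and an adjusted p of 0.862 (limma). The mean over both probes was -0.19 ± 0.29 with an adjusted p over genes of 0.321 (limma), so the Ankrd37 call rests on 1 probe.

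Tpi1, triosephosphate isomerase, interconverts the triose phosphates that the aldolase step makes. Probe ZX-00127F10 had log2 ratios of -0.23, -0.56, -0.62, -0.46, -0.49 and -0.50 and a mean of -0.48 ± 0.14 (n = 6; 1.39-fold lower, interval 1.23 to 1.57; limma adjusted p 0.0302). Probe ZX-00126N12 had -0.32, -0.29, -0.77, -0.49, -0.52 and -0.44 and a mean of -0.47 ± 0.17 (n = 6; 1.39-fold lower, interval 1.21 to 1.59; limma adjusted p 0.0352). Probe ZX-00134N08 had -0.22, -0.18, -0.46, -0.44, -0.35 and -0.34 and a mean of -0.33 ± 0.11 (n = 6; 1.26-fold lower, interval 1.12 to 1.41; limma adjusted p 0.0466). All 6 arrays were under 0 at each of these 3 probes, and array 3 was the lowest at each. Without median centring, ZX-00134N08 lay at -0.23 (adjusted p 0.0811) and was not called.

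The remaining Tpi1 probe, ZA-00024O13, was not called. Its log2 ratios were -0.02, 0.60, -0.17, -0.32, -0.21 and -0.11, with array 2 alone above 0. The mean was -0.04 ± 0.33, or 0.06 without median centring and -0.17 without array 2. Its interval of -0.34 to 0.26 holds the mean of ZX-00134N08 but does not reach those of ZX-00127F10 and ZX-00126N12. Over all 4 probes Tpi1 was at -0.33 ± 0.15, with an adjusted p over genes of 0.0523 (limma), so as a gene it did not pass. Processed copies of many glycolytic genes lie in the mouse genome, and spotted cDNA can bind transcripts of near-identical sequence, so values of Tpi1, Gapdh, Aldoa and Pgam1 are uncertain in this respect.

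The aldolases split fructose bisphosphate into trioses, Aldoa in most tissues and Aldoc mainly in brain. The Aldoa probe ZA-00025E09 had log2 ratios of -0.18, -0.36, -0.45, -0.36, -0.11 and -0.22. All 6 arrays were under 0, as they were at 7 of the 15 probes and at 12.3% of all tested probes. The mean was -0.28 ± 0.13, with an interval of -0.45 to -0.11 and a limma adjusted p of 0.0712, and with array weights, which called 7.11% of all probes under 0, its adjusted p was 0.042. The Aldoa probe ZX-00136M15 ranged from -0.50 on array 4 to 0.05 on array 5, with a mean of -0.21 ± 0.20 and an adjusted p of 0.192 (limma). The 2 Aldoa probes thus had overlapping values, and neither passed.

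The Aldoc probe had log2 ratios of -0.82, -0.36, 1.45, -0.39, 1.39 and -0.51. Arrays 3 and 5 stood far above the rest. The mean of 0.13 ± 1.01 has an interval of -0.72 to 0.97, the widest of the 15, and turns to -0.14 without array 3 or -0.13 without array 5. All of its deposited ratios (100%) were quotients of whole numbers up to 20, within 6e-04 in log2, against 23.6% on average over all probes.

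Gapdh oxidises the triose phosphate and is often used as a reference gene. Its probe had log2 ratios of -0.09, 0.44, -0.27, -0.15, -0.13 and -0.20, with array 2 alone above 0. The mean was -0.07 ± 0.25, or 0.04 without median centring, with an interval of -0.32 to 0.18 and a limma adjusted p of 0.708. This probe and the Tpi1 probe ZA-00024O13 carry the same plate number in their names, and the median of the 361 tested probes of that plate was 0.24 on array 2, against -0.07 to 0.09 on the other arrays. On the plates of the called probes, the median over tested probes of the mean ratio was -0.08 for Tpi1 ZX-00126N12 and -0.07 for Tpi1 ZX-00127F10. It was -0.03 for Tpi1 ZX-00134N08 and Bnip3 ZX-00134A03, 0.04 for Ankrd37 PX-00632F24 and 0.10 for Bnip3 ZX-00145D21. The part of the plate in the values of any of these probes was not tested.

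Pgam1 moves the phosphate group of phosphoglycerate in the later part of the pathway. Probe ZA-00031N17 had log2 ratios of 0.12, 0.43, 0.42, 0.12, -0.005 and 0.10, and a mean of 0.20 ± 0.18 with an interval of -0.0057 to 0.40 and a limma adjusted p of 0.19. It was the highest of the 15 means. The 363 tested probes of its plate also had a median mean above 0, at 0.18, and the part of the plate was not tested. Probe ZX-00128J15, with no value on array 6, had 0.03, 0.02, -0.17, -0.20 and -0.36, and a mean of -0.14 ± 0.16 (n = 5). Probe ZX-00132C22 had 1.05, 0.11, -0.18, -0.35, -0.72 and -0.54, and a mean of -0.11 ± 0.64 with an interval of -0.65 to 0.44. At both of these probes arrays 1 and 2 were above 0 and the others under 0, so the mean over all measured arrays lies between those of the sets. The set difference passed at neither (limma adjusted p 0.388 and 0.31).

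**Figure D2:**
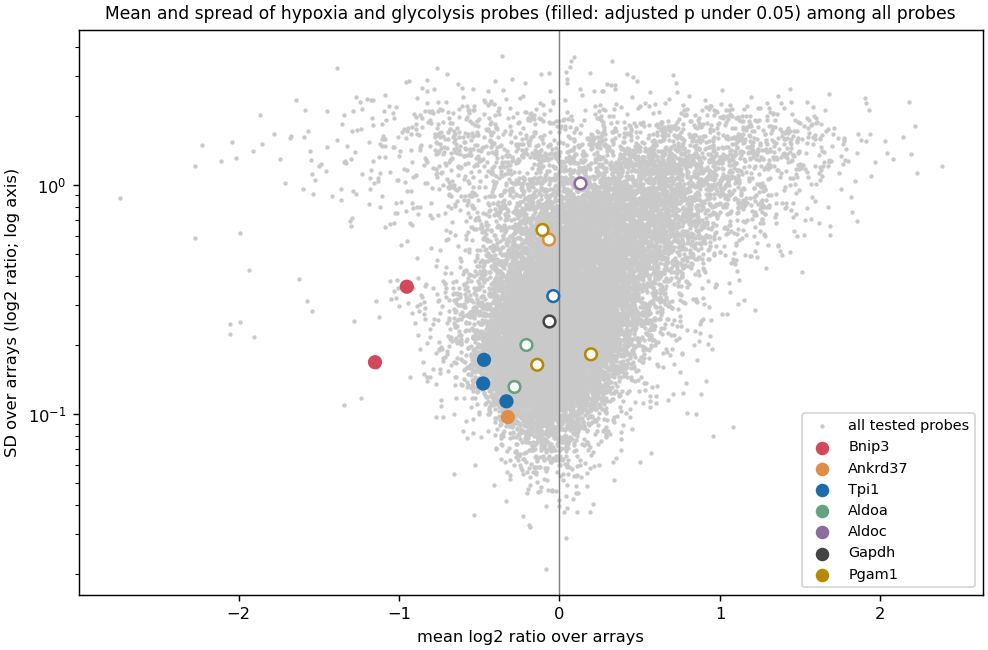
Mean log2 ratio (x axis) against the SD over arrays (y axis, log scale) for all tested probes (grey) and for the 15 hypoxia and glycolysis probes (coloured by gene, filled where the limma adjusted p was under 0.05). The Bnip3 probes lie apart from the bulk of probes at -1.15 and -0.95, while the called Tpi1 and Ankrd37 probes lie at its lower left edge with SDs of 0.10 to 0.17.

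Of the 6 called probes, 5 had an SD under the median SD of all tested probes, and Bnip3 ZX-00134A03 at 0.36 lay above it. The SD over arrays ranged from 0.10 at an Ankrd37 probe to 1.01 at the Aldoc probe, and 10 of the 15 were under the median SD of all tested probes, 0.29. The called probes of Tpi1 and Ankrd37 therefore passed at small differences, at ranks 832 to 1988 from the lowest mean, whereas the Bnip3 probes ranked 81 and 139.

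The 15 probes were compared between arrays 1 and 2 and arrays 3 to 6, since these sets correlated less with each other than within. Bnip3 ZX-00134A03 averaged -1.32 on arrays 1 and 2 and -0.77 on arrays 3 to 6, and ZX-00145D21 averaged -1.03 and -1.21. The sets thus differed in opposite directions at the 2 Bnip3 probes. The SD of their average, 0.16, is smaller than that of either probe (0.36 and 0.17). The called Tpi1 probes averaged -0.30, -0.39 and -0.20 on arrays 1 and 2 against -0.55, -0.52 and -0.40 on arrays 3 to 6. All 6 called probes were thus under 0 in both sets. With the set as a term, which called 1.89% of all probes under 0, 4 of the 6 passed, and Ankrd37 PX-00632F24 (limma adjusted p 0.0594) and Tpi1 ZX-00134N08 (0.0537) did not, so no Ankrd37 probe was called in that fit. Means of opposite sign were seen at Ankrd37 ZX-00130M23 (-0.51 and 0.16), Tpi1 ZA-00024O13 (0.29 and -0.20), Aldoc (-0.59 and 0.48), Gapdh (0.17 and -0.19), Pgam1 ZX-00128J15 (0.02 and -0.25) and Pgam1 ZX-00132C22 (0.58 and -0.45). In a limma fit with the set as a term, the smallest adjusted p for a set difference among the 15 was 0.31, at Pgam1 ZX-00132C22. No probe of 21230 passed (0% called), while 15.4% had an unadjusted p under 0.05, among them 2 of the 15. These 2 were Pgam1 ZX-00132C22 and the called Bnip3 probe ZX-00134A03 (unadjusted limma p 0.0149 and 0.0363).

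**Figure D3:**
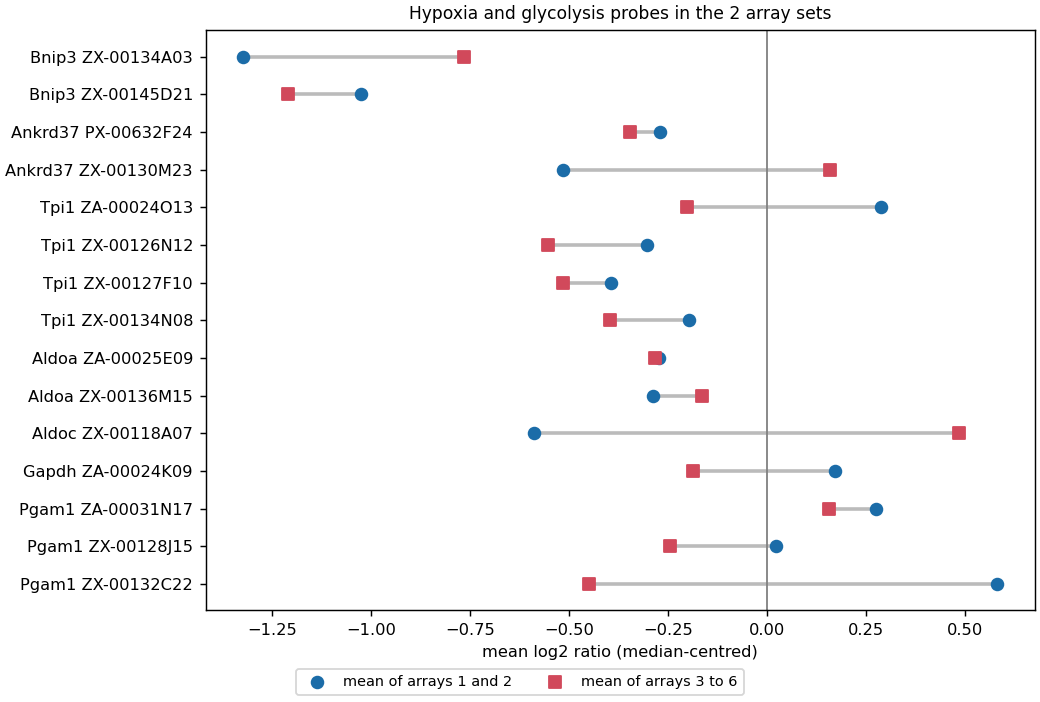
Mean log2 ratio (x axis) of each hypoxia and glycolysis probe (y axis) over arrays 1 and 2 (blue circles) and over arrays 3 to 6 (red squares), joined by a grey line. The 6 called probes of Bnip3, Ankrd37 and Tpi1 lie left of 0 in both sets, and 6 other probes have the sets on opposite sides of 0.

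Leaving out single arrays changed most of these calls. Bnip3 ZX-00145D21 passed in 5 of 6 fits with 1 array left out, with adjusted p from 0.022 to 0.0509 (limma), the highest without array 5. The other 5 called probes passed only without array 2, and without array 1, 3, 4, 5 or 6 their adjusted p lay between 0.0568 and 0.129. Few probes passed in those fits at all: the share of all probes called under 0 was 0.0518% without array 1, 0.113% without array 3, 0.0377% without array 4, 0.0282% without array 5 and 0.0471% without array 6, against 2.73% without array 2. With arrays 3 to 6 alone (0.0485% of all probes called under 0) or arrays 1 and 2 alone (0%), none of the 15 was called. The means moved little, from -1.20 to -1.10 and from -1.05 to -0.83 for the Bnip3 probes, from -0.53 to -0.30 over the called Tpi1 probes and from -0.35 to -0.30 for Ankrd37 PX-00632F24. Against a log2 change of 0.2 in place of 0, Bnip3 ZX-00145D21 was the only one of the 15 to pass (limma treat, adjusted p 0.0116), as did 0.132% of all probes under 0.

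**Figure D4:**
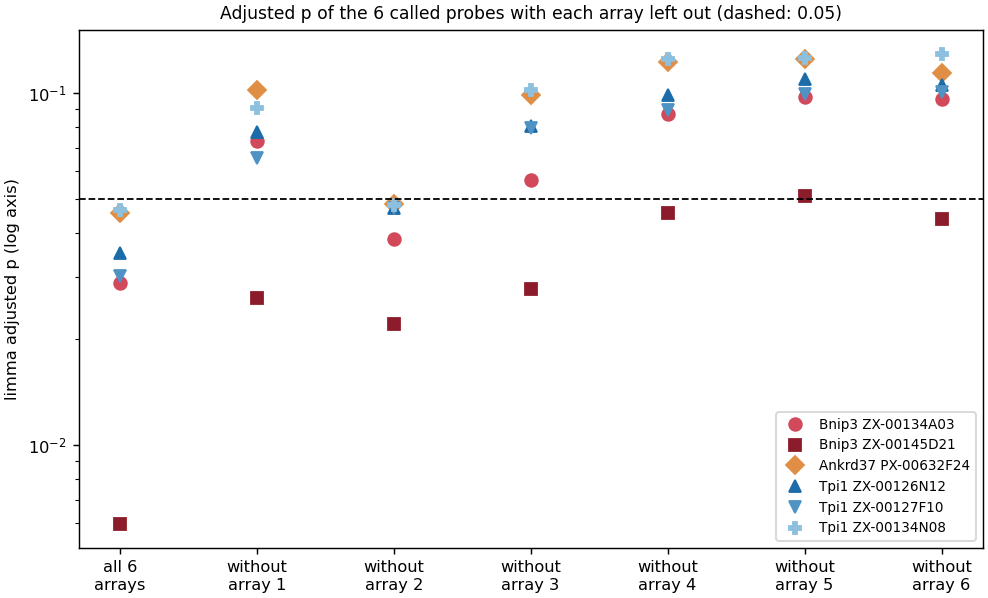
Limma adjusted p (y axis, log scale) of the 6 called hypoxia and glycolysis probes with all 6 arrays and with each array left out in turn (x axis), with the threshold of 0.05 dashed. Bnip3 ZX-00145D21 stays under or at about 0.05 throughout, from 0.00597 with all arrays to 0.0509 without array 5, and the other 5 rise above 0.05 in each fit except that without array 2.

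The other genes of glycolysis and of lactate metabolism did not share one direction, and most had a mean above 0, as did most genes tested. Of 24 listed, 12 were measured, with 1 called under 0 and 2 above 0 and a median gene mean of 0.10. Of these 12 gene means, 3 were under 0, against 4611 of all 10818. At an unadjusted limma p under 0.05, 2 genes had a probe under 0 and 5 a probe above 0, against 18.7% and 20% of all genes. Ldhb, the heart-type lactate dehydrogenase subunit, had log2 ratios of 0.52, 0.59, 0.75, 0.43, 0.85 and 0.75 at its called probe, all above 0, with a mean of 0.65 ± 0.16 (n = 6; limma adjusted p 0.0219). Its other probe was at 0.50 ± 0.61, with array 4 under 0. Eno2, the neuronal enolase, was at 0.87 ± 0.52 with all 6 arrays above 0, from 0.07 to 1.56 (adjusted p 0.0497, limma). Ldhc, the testis lactate dehydrogenase subunit, was at -0.53 ± 0.17 with all 6 arrays under 0 (adjusted p 0.0302, limma). Over all genes, 5% had at least 1 probe called under 0 and 3.25% at least 1 above 0.

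In a separate list of other targets of hypoxia-inducible factors, no measured gene was called. The share of all genes with a called probe was 5% under 0 and 3.25% above 0, so no call among 15 genes is close to it. Of 33 listed genes, 15 were measured, and the median was -0.12. A mean under 0 was found for 9 of the 15, against 4611 of all 10818 genes. The glycolysis genes of the paragraph above are not among these 15. At an unadjusted limma p under 0.05, 4 of these genes had a probe under 0 and 3 a probe above 0, against 18.7% and 20% of all genes. The smallest p was that of Ero1a, an oxidase of protein folding in the endoplasmic reticulum, with log2 ratios of -0.22, -0.39, -0.18, -0.27, -0.40 and -0.29. All were under 0, and the mean of -0.29 ± 0.09 had an adjusted p of 0.0518 (limma). Bnip3l, the paralogue of Bnip3 that is also a mitophagy receptor, was at -0.24 ± 0.08 at its lowest probe (adjusted p 0.0742, limma) and at -0.21, -0.12 and 0.10 at the others. It had the smallest p among 10 measured genes of mitophagy and Bnip3 partners, of which none was called, with a median of 0.07. At an unadjusted limma p under 0.05, 3 of these 10 had a probe under 0 and 3 a probe above 0. The shares over all genes are those given above for both thresholds.

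Of 11 genes of the oxygen-sensing machinery itself, only 2 were measured and neither was called, nor did either reach an unadjusted limma p under 0.05. Of all genes, 5% had a probe called under 0 and 3.25% above 0, and 2 genes are too few to compare with these shares. Hif1a, the factor that oxygen destabilises, had probes at 0.60 and -0.16, and Hif1an, the hydroxylase that inhibits it, was at 0.69 ± 0.83 with an adjusted p of 0.183 (limma).

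In the branches around glycolysis, the called genes were under 0, while most gene means were above 0, as over all genes. Of 11 measured genes of gluconeogenesis and the pentose phosphate pathway, 2 were called: G6pc3, a glucose phosphatase, at -0.38 ± 0.15, and Pgm1, which links glycogen to glycolysis, at -0.42 ± 0.18, with all 6 arrays under 0 at each (limma adjusted p 0.0441 and 0.0443). The list's median was 0.06, and 3 of its 11 gene means were under 0, against 4611 of all 10818. At an unadjusted limma p under 0.05, 4 of its genes had a probe under 0 and 2 a probe above 0. Over all genes these shares were 18.7% and 20%, and 5% had a probe called under 0. A list around the entry and use of pyruvate in mitochondria had 8 measured genes: Mpc1, Pdhb, Dld, Pdk1, Pdk2, Pdk3, Pdk4 and Cs. Mpc1, a subunit of the pyruvate carrier, was the only one called. It passed at 4 of 7 probes, at -0.52, -0.49, -0.44 and -0.36, with its other probes at -0.25, -0.09 and -0.01. The median of that list was 0.15, and 2 of its 8 gene means were under 0. At an unadjusted limma p under 0.05, 2 of its genes had a probe under 0 and 2 a probe above 0. With 1 array left out, the called probes of Ldhb, Ldhc and Pgm1 and 2 of the 4 called probes of Mpc1 passed only without array 2, and those of Eno2 and G6pc3 and the other 2 of Mpc1 in no fit.

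**Figure D5:**
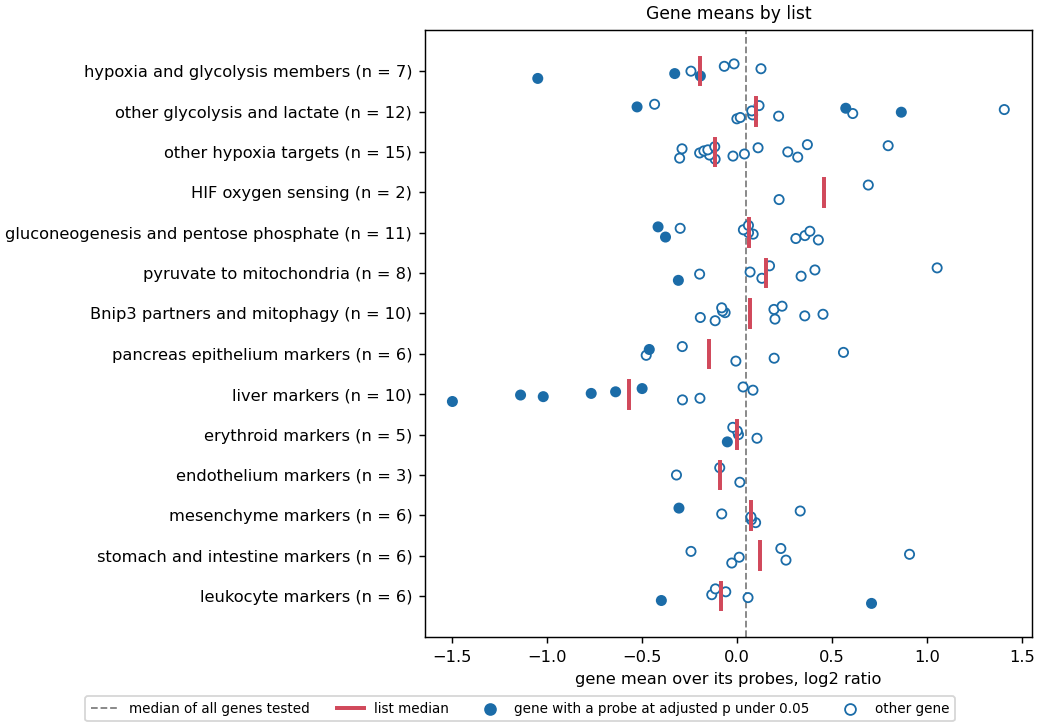
Gene means of the log2 ratio (x axis; each point 1 gene, filled where at least 1 of its probes had a limma adjusted p under 0.05) in the hypoxia and glycolysis members and in other lists (y axis, with the number of measured genes), with the list median in red and the median of all genes dashed. The members' median of -0.19 lies left of the dashed line at 0.05, and the liver markers' median of -0.57 further left.

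Markers of other cell types that the dissected tissue could hold were compared on the same arrays. Over all genes, 5% had at least 1 probe called under 0 and 3.25% at least 1 above 0. At an unadjusted limma p under 0.05 these shares were 18.7% and 20%. Most liver markers were also lower: 6 of 10 measured genes were called under 0 and none above 0. A mean under 0 was found for 8 of the 10, against 4611 of all 10818 genes. Alb and Ttr, with gene means of -0.29 and -0.20, were not called (smallest limma adjusted p 0.0622 and 0.28). Apoh and Hpx were at 0.08 and 0.03. The lowest was Afp, the fetal serum protein, at -2.06 ± 0.22 at its lowest probe, which was called whichever array was left out. Of the 4 Afp probes 3 were called, each in all 6 of these fits, and the remaining one was at 0.006 (adjusted p 0.981, limma). The called probes of the other liver genes named by the rule passed in fewer fits, Ambp and Fgg in 2 of 6 and both Fgb probes in 1 of 6. The liver list had a median of -0.57, and by array it lay between -0.79 and -0.45, against -0.39 to -0.13 for the 7 hypoxia and glycolysis genes. The part of liver RNA in the Bnip3, Tpi1 and Ankrd37 values was not tested. Erythroid markers had a median of 0.00097, and 3 of 5 genes had a probe under 0 and 2 a probe above 0 at an unadjusted p under 0.05. These 5 genes had 53 probes, and a gene with many probes more readily has 1 past a threshold. Hba-a1 was called above 0 at 1 of 17 probes, which passed in no fit with 1 array left out, and its gene mean was -0.05. Endothelium markers, none of 3 called with 1 under 0 at an unadjusted p under 0.05, had a median of -0.09. Mesenchyme and leukocyte markers had medians of 0.07 and -0.09, with 1 of 6 genes called under 0 in each (Sparc and C1qa) and 1 leukocyte gene above 0 (Cd53). With 1 array left out, Sparc and C1qa passed in no fit and Cd53 in 1 of 6. Stomach and intestine markers had a median of 0.12 with none of 6 called and 2 on each side at an unadjusted p under 0.05. Among 6 measured markers of pancreatic epithelium the median was -0.15, and 2 genes had a probe under 0 and 2 a probe above 0 at an unadjusted p under 0.05. Nkx6-1, a transcription factor of the early bud, had both probes above 0, at 0.39 and 0.73, and Ptf1a, a factor of acinar and progenitor cells, had a mean of 0.20. Sox9, Foxa2 and Pdx1, further transcription factors of pancreatic progenitors, had gene means of -0.48, -0.29 and -0.0064. Cpa1, a digestive carboxypeptidase of progenitor tips, was the only one called, under 0 at its 3 probes, at -0.50, -0.48 and -0.41, of which 2 passed without array 2 and none without any other array.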

How the data were processed

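The authors' deposited table gives 1 log2 ratio per probe and array. No source used here gives their background correction, normalization or dyes. Signal over background is unknown. Their ceiling value, 16.61 (log2 of 1e+05), was set to missing (40 to 257 values per array). After median centring of each array, the 21247 probes measured on at least 4 arrays entered the fit. Of 18388 probes with 1 symbol, 17786 took the RefSeq symbol of their Entrez ID and 602 kept the annotation's. The 66 with several and 3434 with none were not named.

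In R 4.3.3, limma 3.58.1 fitted an intercept per probe (lmFit, eBayes; two-sided). P-values were adjusted by the Benjamini-Hochberg method across the 21247 probes, and intervals are limma's at 95%. The fit was also run on simulated independent noise without array sets, plate differences or unequal spread between arrays, so that run does not test the calls here. A gene counts as called when any of its probes is. Members and lists were chosen with earlier results of these data known. Named from each other list were up to 4 called genes of smallest p, or that of smallest p where none was called. Hif1a, Alb, Ttr, Apoh, Hpx and the pancreas markers other than Cpa1 were named outside this rule, after their values were seen. The plate comparison was added then too. Of the marker lists, the text gives values for few of the genes the rule names.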

Additional observations from a re-analysis of the deposited data

Results flagged for a closer look

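Each probe of the 7 genes, each probe of the genes named from the other lists, and each list median and array measure was checked for 1 array lying apart by more than Dixon's 95% limit. Chance picks about 1 in 20. Such an array was found at 2 of the 15 hypoxia and glycolysis probes, at 6 of 53 other probes and at 1 of 17 medians and array measures, and 7 of these 9 were on array 2, which had the widest spread.

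On array 2, the Tpi1 probe ZA-00024O13 had 0.60 against -0.32 to -0.02 on the others, and the Gapdh probe 0.44 against -0.27 to -0.09. Also on array 2, the Bnip3l probe ZX-00143G15 was at 0.30 against -0.30 to -0.15, the Fgb probe ZX-00135H16 at -0.60 against -1.28 to -1.08, the Hba-a1 probe ZA-00026L05 at 0.50 against -0.21 to 0.01, the Hba-a1 probe ZX-00135C16 at 0.46 against -0.17 to 0.007, and the leukocyte median at -0.53 against -0.07 to 0.05. On array 4 the Mpc1 probe ZA-00024C12 had -0.12 against -0.72 to -0.53, and on array 1 the Sparc probe ZA-00026J22 had -0.15 against -0.36 to -0.30.

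At 2 Pgam1 probes every array of one set lay above 0 and every array of the other under 0. Arrays 1 and 2 exceeded arrays 3 to 6 by 0.27 at ZX-00128J15 and by 1.03 at ZX-00132C22, with limma adjusted p for the difference of 0.388 and 0.31.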

How the results depend on the processing

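Each value is already a ratio of the 2 RNAs on the same array, so the fit keeps that pairing, and no other pairing was modelled. For all probes, 750 were called under 0 and 416 above 0. These counts were 409 and 849 without median centring (67.5% above 0 against 35.7%), 1191 under 0 with scale normalization, 1510 and 892 with array weights, 28 and 9 against a log2 change of 0.2, 375 and 255 with 1 value per gene, 402 under 0 with the array set as a term, 10 and 3 with arrays 3 to 6 alone, and 0 and 0 with arrays 1 and 2 alone. Leaving out 1 array gave 6 to 580 under 0 and 2 to 269 above 0. Of the 15 hypoxia and glycolysis probes, 6 were called under 0, and 1 against a log2 change of 0.2, 1 with 1 value per gene (Bnip3), 0 with arrays 3 to 6 alone, 0 with arrays 1 and 2 alone, and 0 to 6 with 1 array left out. The gene median of -0.19 was -0.0902 without median centring, which moved the median of all probes from 0.03 to 0.13.

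No called probe changed sign under any alternative run. Uncalled probes that did were these. Without median centring, Ankrd37 ZX-00130M23 was at 0.038, Tpi1 ZA-00024O13 at 0.0647 and Gapdh at 0.0358. With array weights Ankrd37 ZX-00130M23 was at 0.0144, and with quantile normalization Aldoc at -0.0035. With the set as a term, Tpi1 ZA-00024O13 was at 0.0431, Aldoc at -0.053 and Pgam1 ZX-00132C22 at 0.0659. With arrays 3 to 6 alone, Ankrd37 ZX-00130M23 was at 0.16. With arrays 1 and 2 alone, Tpi1 ZA-00024O13 was at 0.29, Aldoc at -0.59, Gapdh at 0.17, and Pgam1 at 0.0223 (ZX-00128J15) and 0.58 (ZX-00132C22). With 1 array left out, means ranged from -0.25 to 0.11 at Ankrd37 ZX-00130M23, -0.17 to 0.0175 at Tpi1 ZA-00024O13, -0.14 to 0.32 at Aldoc and -0.34 to 0.0179 at Pgam1 ZX-00132C22. The causes were not tested. The number of arrays limits the precision, and arrays 1 and 2 alone leave 2 values per probe.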
